A study of Mus musculus with 2 samples.

Results

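The peroxiredoxin and thioredoxin system of the oocyte was described here through 10 genes: the peroxiredoxins *Prdx1* to *Prdx6*, the thioredoxins *Txn1* and *Txn2*, and the thioredoxin reductases *Txnrd1* and *Txnrd2*. They were picked by gene name from the table of all genes, and all 10 were found among its 18467 genes. Each gene has 1 value in each of 2 RNA-seq libraries, given in FPKM (fragments scaled by transcript length and library size), which can be compared between genes because it is per length. The first library is of oocytes from 2-week-old mice on C57BL/6 that carry the *Gdf9*-Cre transgene and *Kat8* alleles flanked by loxP sites, called cKO. The second is of wild type (WT) oocytes of the same age and strain. *Gdf9* is an oocyte gene, so its promoter directs Cre to oocytes and not to the follicle cells around them. *Kat8* encodes an acetyltransferase of histone H4 lysine 16. The labels do not say how many mice or oocytes were pooled for a library, or whether the WT mice carried Cre or loxP alleles. With 1 library per genotype no difference below could be tested, and the genotype cannot be told apart from the single library.

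Peroxiredoxins are enzymes that reduce hydrogen peroxide and organic peroxides with a reactive cysteine. Most of them are then reduced by a thioredoxin, which is recycled by a thioredoxin reductase with electrons from NADPH. The system runs in parallel in several compartments: PRDX1, PRDX2, TXN1 and TXNRD1 in cytosol and nucleus, PRDX3, TXN2 and TXNRD2 in mitochondria, and PRDX4 in the endoplasmic reticulum. PRDX5 is found in mitochondria, peroxisomes and cytosol, and PRDX6, which is mainly cytosolic, has a single catalytic cysteine and relies on glutathione.

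The catalytic codons show what these genes have in common and where they part. For each peroxiredoxin the 30 coding bases around the codon of the peroxide-attacking cysteine are printed 5′ to 3′, with that codon in capitals (GENCODE M21, GRCm38).
Prdx1: gactttacttttgtgTGTcccacggagatc
Prdx2: gacttcacttttgttTGCcccacggagatc
Prdx3: gatttcacatttgtgTGTcctacagaaatt
Prdx4: gatttcacctttgtgTGTccaactgaaatc
Prdx5: gcatttacacctggcTGTtctaagacccac
Prdx6: gactttaccccagtgTGCaccacagaactt
In this stretch *Prdx1* shared 27 of 30 bases with *Prdx2*, 23 with *Prdx3* and 24 with *Prdx4*, and 15 and 20 with *Prdx5* and *Prdx6*. Over the aligned coding sequence *Prdx1* and *Prdx2* were 70.0% identical, and *Prdx1* and *Prdx6* 57.7%. The thioredoxins carry a pair of active-site cysteines, whose codons are in capitals in the next stretches.
Txn1: gctacgtggTGTggacctTGCaaaatgatc
Txn2: gcacagtggTGTggccccTGCaagatccta
The reductases are selenoproteins: an in-frame TGA, shown in capitals 2 codons before the stop codon, is read as selenocysteine.
Txnrd1: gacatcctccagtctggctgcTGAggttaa
Txnrd2: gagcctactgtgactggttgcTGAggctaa
*Txnrd1* and *Txnrd2* shared 18 of these 30 bases, and *Txn1* and *Txn2* 21 of theirs.

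*Kat8* itself (gene ID 67773) stood at 0.985 FPKM in the cKO library and 166 FPKM in the WT library, so the libraries matched their labels. The 10 oocyte markers summed to 20212 FPKM in the cKO library and 23294 FPKM in the WT library. By the 2-fold rule defined below 0 of them were higher and 1 lower, *Dppa3*, at 4524 FPKM in the cKO library and 10371 FPKM in the WT library, and their median log2 ratio was 0.10. Marker lists for other cells held far lower summed levels. The 8 granulosa cell markers summed to 105.8 FPKM in the cKO library and 96.4 FPKM in the WT library, and 0 of them were at 0. *Inha* made up most of these sums, at 62.7 FPKM in the cKO library and 67.3 FPKM in the WT library. Of the 7 at 1 FPKM, 2 were higher and 0 lower, with a median log2 ratio of 0.34: *Foxl2* stood at 8.34 FPKM in the cKO library and 3.08 FPKM in the WT library, and *Nr5a2* at 16.8 and 6.10 FPKM. *Fshr* stood at 1.75 FPKM in the cKO library and 0.849 FPKM in the WT library, and *Inhbb* at 7.08 and 5.59 FPKM. Other markers went the other way: *Hsd17b1* at 3.53 and 6.48 FPKM, *Cyp19a1* at 5.49 and 6.70 FPKM, and *Amh*, under the floor, at 0.121 and 0.288 FPKM. The 8 theca and stroma markers summed to 11.6 FPKM in the cKO library and 2.19 FPKM in the WT library, and all 4 of them that reached 1 FPKM were higher, with a median log2 ratio of 2.26. These 4 reached 1 FPKM only in the cKO library, which favours a call of higher. By the same rule 18.2% of all genes at 1 FPKM were higher and 12.2% lower. Of the 12 blood, immune and endothelial markers 9 were measured here and summed to 36.8 FPKM in the cKO library and 69.4 FPKM in the WT library, with the leukocyte gene *Ptprc* listed at 0 in the WT library. Of the 3 that reached 1 FPKM, 0 were higher and 1 lower. The part of these cells in the values below was not tested. Total fragment numbers are unknown. Among 3502 genes above 0 and under 0.6 FPKM in both libraries, the most frequent ratio of cKO over WT was 1.24. If this peak stands for genes with 1 fragment in each library, a fragment added 1.24 times as much FPKM to the cKO value. That reading was not tested.

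A gene was called higher or lower here when it reached 1 FPKM in either library and its log2 ratio of cKO over WT, on the log2(FPKM + 0.1) scale, was at least 1 or at most -1. Of the 10 genes 9 reached 1 FPKM. *Prdx1*, *Prdx2* and *Prdx3* were lower in the cKO library by this rule, *Prdx6* was higher, and *Prdx4*, *Prdx5*, *Txn1*, *Txn2* and *Txnrd1* were neither. Of the 11816 genes at 1 FPKM, 12.2% were lower and 18.2% higher by the same rule. The median log2 ratio of the 9 genes was -0.56, against 0.06 for all 11816 genes. The value in the cKO library was below that in the WT library for 8 of the 9 as deposited, and for 46.8% of all genes at 1 FPKM. The sign of *Txn1* depended on the scaling, and that of *Prdx4* turned when a trend on transcript length and GC content was removed, as given with each gene.

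**Figure D1:**
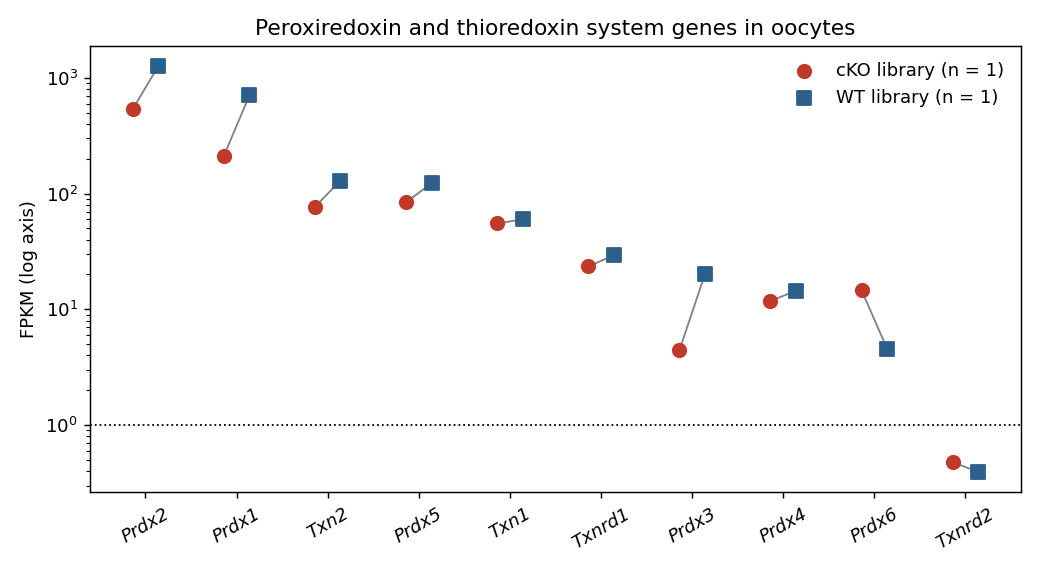
FPKM of the 10 genes (log axis) in the cKO library (red circles) and the WT library (blue squares), 1 library each, ordered by WT level, with the floor of 1 FPKM dotted. *Prdx1*, *Prdx2* and *Prdx3* sit clearly lower in the cKO library, *Prdx6* sits higher, and *Txnrd2* is under the floor in both.

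The abundant peroxiredoxins were the cytosolic pair, and both were lower in the cKO library. *Prdx2* (gene ID 21672; mm10 chromosome 8, 84969647 to 84974313) stood at 537 FPKM in the cKO library and 1259.6 FPKM in the WT library. This was 2.35-fold lower, a log2 ratio of -1.23, and it took *Prdx2* to rank 165 among all genes in the cKO library, against rank 75 in the WT library. PRDX2 is the peroxiredoxin best known from red blood cells. *Prdx1* (gene ID 18477; chromosome 4, 116684964 to 116700000) stood at 211 FPKM in the cKO library and 704 FPKM in the WT library, 3.33-fold lower with a log2 ratio of -1.73. Its rank was 464 in the cKO library and 154 in the WT library. PRDX1 is also known as a partner of signalling kinases and phosphatases. Of all genes at 1 FPKM, 3.39% had a lower ratio than *Prdx1* and 8.21% a lower ratio than *Prdx2*.

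The share of genes called lower varied with level. Of the 1220 genes whose larger value was at least 100 FPKM, 16.7% were lower and 4.92% higher by the 2-fold rule. *Prdx1*, *Prdx2*, *Prdx5* and *Txn2* are in this class. The red cell gene *Hba-a1* stood at 14.99 FPKM in the cKO library and 51.5 FPKM in the WT library, and its near-identical copy *Hba-a2* at 11.7 and 7.07 FPKM, so that reads of the copies may be split uncertainly. Other red cell markers were under 1 FPKM in both libraries: *Alas2* at 0.476 FPKM in the cKO library and 0.232 FPKM in the WT library, and *Hbb-bs* at 0.000488 and 0.00184 FPKM. The part of red cell RNA in the *Prdx2* values was not tested. With both libraries rescaled to the same total (TPM), the median over all genes became 0.30. There the log2 ratio of *Prdx2* was -0.99, just short of the rule, and that of *Prdx1* was -1.49.

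In the authors' deposited table *Prdx1* and *Prdx2* were the only genes of the 10 on the list of lower genes, which holds 1.94% of all genes, and 0 of the 10 were on the list of higher genes, which holds 2.71%. The false discovery rates in the authors' deposited table were 5.46e-43 for *Prdx1* and 2.6e-40 for *Prdx2*. They come from 1 library per genotype by a test that is not stated, so they do not measure the spread between animals.

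**Figure D2:**
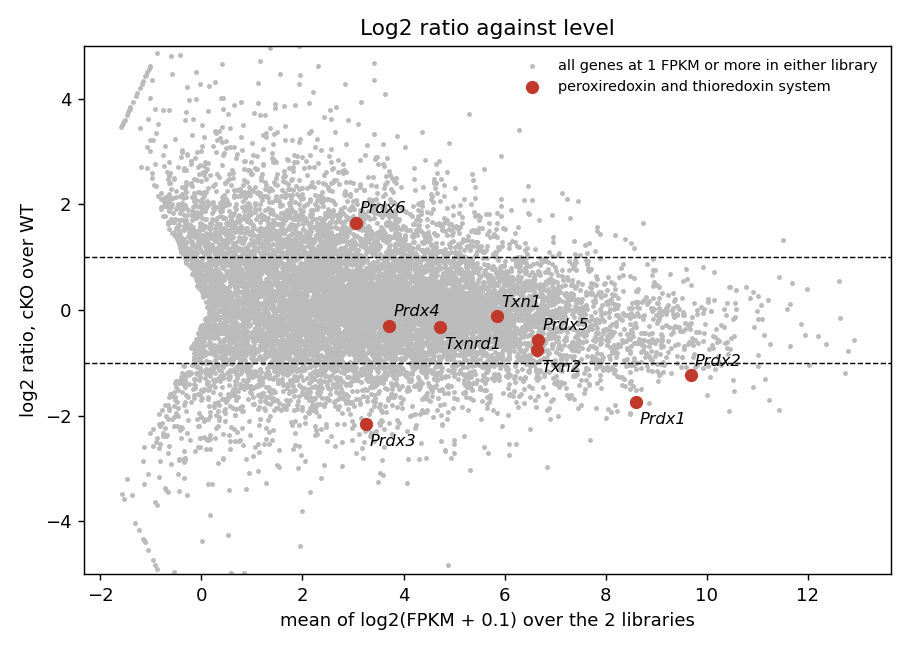
Log2 ratio of cKO over WT (vertical) against mean level over the 2 libraries (horizontal), for all genes at 1 FPKM or more (grey) and the 9 system genes at that level (red), with dashed lines at ratios of 1 and -1. *Prdx1* and *Prdx2* lie at the abundant end, where few genes are higher, and 25 genes with ratios beyond 5 in size are outside the axis.

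The 3 peroxiredoxin genes that were lower lie on different chromosomes, and their promoters (RefSeq, GRCm38.p6, 250 bases before to 50 after the start) are shown because the genes differed in the same direction. Capitals mark matches on either strand to 4 short motifs: TGACTCA, the AP-1 element, TGACNNNGC, the core of the antioxidant response element that NRF2 binds, TATAAA, the TATA box, and GGGCGG, the GC box. The *Prdx1* window is chr4:116685349-116685648 on the plus strand, that of *Prdx2* is chr8:84969372-84969671 on the plus strand, and that of *Prdx3* is chr19:60874489-60874788 on the minus strand. The *Prdx1* window lies inside the deposited locus of the gene, which begins at 116684964, so its start base is not the locus start.
Prdx1: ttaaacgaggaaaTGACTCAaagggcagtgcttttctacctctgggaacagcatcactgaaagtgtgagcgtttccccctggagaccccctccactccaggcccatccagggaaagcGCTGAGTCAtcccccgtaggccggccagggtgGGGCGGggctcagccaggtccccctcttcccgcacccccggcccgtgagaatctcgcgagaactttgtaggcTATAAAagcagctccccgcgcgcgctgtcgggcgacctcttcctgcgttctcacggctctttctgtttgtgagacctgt
Prdx2: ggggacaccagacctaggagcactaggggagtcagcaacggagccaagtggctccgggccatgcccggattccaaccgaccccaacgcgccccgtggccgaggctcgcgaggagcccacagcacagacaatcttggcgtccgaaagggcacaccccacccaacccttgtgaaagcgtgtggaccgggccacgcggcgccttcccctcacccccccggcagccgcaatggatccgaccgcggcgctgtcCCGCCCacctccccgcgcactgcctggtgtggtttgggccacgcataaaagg
Prdx3: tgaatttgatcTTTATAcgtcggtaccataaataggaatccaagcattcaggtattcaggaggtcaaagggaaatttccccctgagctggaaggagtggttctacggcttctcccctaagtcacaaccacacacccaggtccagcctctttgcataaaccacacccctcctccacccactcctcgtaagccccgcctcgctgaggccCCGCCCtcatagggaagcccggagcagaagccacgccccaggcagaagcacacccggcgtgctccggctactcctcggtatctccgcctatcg
Positions are those of the leftmost printed base, with the start base as 0. *Prdx1* had TGACTCA at -237 and, on the other strand, at -131, the second inside a TGACNNNGC match at -133. It also had TATAAA at -29 and GGGCGG at -101. *Prdx2* had 1 match, to GGGCGG at -2, and *Prdx3* had GGGCGG at -43 and TATAAA at -239. Of 32851 promoter windows in the table, 5.20% held TGACTCA, 12.4% TGACNNNGC, 13.6% TATAAA and 35.7% GGGCGG. Thus GGGCGG was the 1 motif of the 4 found in all 3 promoters, and it was also the most frequent in general. A promoter was listed for 9 of the 10 genes, all but *Prdx6*. Among the other 6 with a promoter, TGACNNNGC was matched in *Txnrd1* alone, in 1 of its 3 windows, and GGGCGG in at least 1 window of all 6.

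The mitochondrial branch had the lowest ratio of the system in its peroxiredoxin. *Prdx3* (gene ID 11757; chromosome 19, 60864065 to 60874538) encodes the peroxiredoxin of the mitochondrial matrix. It stood at 4.42 FPKM in the cKO library and 20.1 FPKM in the WT library, 4.54-fold lower with a log2 ratio of -2.16, and 1.80% of all genes at 1 FPKM had a lower ratio. Of the 4987 genes with a larger value of 10 to under 100 FPKM, a class that holds *Prdx3*, 10.6% were lower by the rule. The authors' deposited table gave *Prdx3* a false discovery rate of 0.0976 and kept it off the list of lower genes, although its ratio was farther from 0 than those of *Prdx1* and *Prdx2*.

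*Txn2* (gene ID 56551; chromosome 15, 77915050 to 77928994), the mitochondrial thioredoxin gene, stood at 76.9 FPKM in the cKO library and 129 FPKM in the WT library, a log2 ratio of -0.75 that did not reach the rule. The level of *Txn2* was 17.4 times that of *Prdx3* in the cKO library and 6.45 times in the WT library. *Txnrd2* (gene ID 26462; chromosome 16, 18348181 to 18479073), the mitochondrial reductase gene, was under 1 FPKM in both libraries, at 0.479 FPKM in the cKO library and 0.394 FPKM in the WT library. No difference was read from these values.

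*Prdx6* was the 1 gene of the system that was higher in the cKO library. Its product also has phospholipase A2 activity. *Prdx6* (gene ID 11758; chromosome 1, 161240111 to 161251166) stood at 14.6 FPKM in the cKO library and 4.57 FPKM in the WT library, 3.19-fold higher with a log2 ratio of 1.65. Of all genes at 1 FPKM, 7.79% had a higher ratio. In the same class of level as *Prdx3*, which also holds *Prdx6*, 15.6% of genes were higher by the rule. The authors' deposited table gave it a false discovery rate of 0.122. Its relative *Prdx6b* was listed at 0 in the cKO library and at 0.0126 FPKM in the WT library, and it shares 0.299% of the 50-base words of *Prdx6*. The order of levels of *Prdx6* and *Prdx3* thus differed between libraries: *Prdx6* stood at 3.30 times *Prdx3* in the cKO library and at 0.228 times in the WT library.

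The other peroxiredoxins were closer between libraries. *Prdx4* (gene ID 53381; chromosome X, 155323919 to 155338454), which acts in the endoplasmic reticulum where oxidative protein folding makes peroxide, stood at 11.8 FPKM in the cKO library and 14.5 FPKM in the WT library. Its log2 ratio was -0.29, and 0.09 less the trend on transcript length and GC content, so it has no settled sign. *Prdx5* (gene ID 54683; chromosome 19, 6906818 to 6909645) stood at 83.8 FPKM in the cKO library and 123 FPKM in the WT library, a log2 ratio of -0.56. The *Prdx5* exons share 409 bases with *Trmt112* on the opposite strand, 19.1% of the exonic bases of *Prdx5*. *Trmt112* stood at 171 FPKM in the cKO library and 302 FPKM in the WT library, and use of strand in counting is not stated, so the *Prdx5* values are uncertain.

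Within the family the make-up differed between the libraries, with a smaller part for *Prdx1* in the cKO library. The 6 peroxiredoxins together summed to 863 FPKM in the cKO library and 2126 FPKM in the WT library, 2.46-fold lower. *Prdx1* made up 24.5% of the sum in the cKO library and 33.1% in the WT library, and *Prdx2* 62.2% and 59.3%. *Prdx5* held 9.71% in the cKO library and 5.81% in the WT library, and *Prdx6* 1.69% and 0.215%. *Prdx4* held 1.37% in the cKO library and 0.681% in the WT library, and *Prdx3* 0.513% and 0.945%. These shares do not depend on how the libraries are scaled to each other. *Prdx1* stood at 14.5 times the level of *Prdx6* in the cKO library and at 154 times in the WT library.

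**Figure D3:**
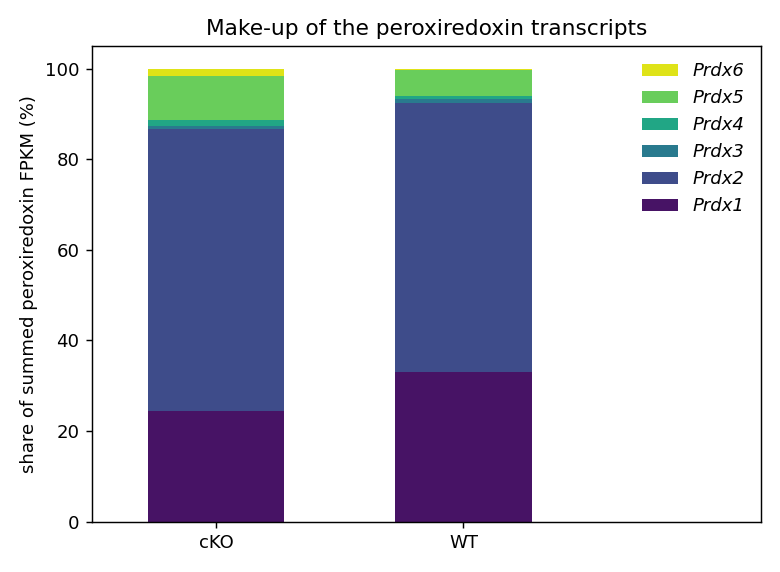
Share of the summed FPKM of the 6 peroxiredoxins (percent, bars from 0) in the cKO library (left) and the WT library (right), 1 library each. *Prdx1* takes 24.5% in the cKO library and 33.1% in the WT library, and the bands of *Prdx5* and *Prdx6* are wider in the cKO library.

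The cytosolic thioredoxin and its reductase, which serve PRDX1 and PRDX2, had ratios nearer to 0. *Txn1* (gene ID 22166; chromosome 4, 57943372 to 57956411) stood at 55.3 FPKM in the cKO library and 59.9 FPKM in the WT library. Its log2 ratio was -0.11 as deposited, 0.13 as TPM and 0.36 less the trend on transcript length and GC content. *Txnrd1* (gene ID 50493; chromosome 10, 82833950 to 82897724) stood at 23.5 FPKM in the cKO library and 29.3 FPKM in the WT library, a log2 ratio of -0.32. *Txn1* was 2.36 times as abundant as *Txnrd1* in the cKO library and 2.05 times in the WT library. *Prdx1* stood at 3.82 times *Txn1* in the cKO library and at 11.8 times in the WT library, and *Prdx2* at 9.71 and 21.04 times. *Txnrd3*, the reductase known from testis, stood at 23.6 FPKM in the cKO library and 24.9 FPKM in the WT library, a level close to that of *Txnrd1*.

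Reads of some of these genes can also match near-identical copies or overlapping genes. Of the 50-base words of the longest transcript, 10.9% of those of *Prdx1* and 23.8% of those of *Prdx2* also occur in transcripts of other genes, as do 29.7% of those of *Prdx5* and 2.50% of those of *Txn1*. For *Prdx1* and *Txn1* these other genes are processed pseudogenes. For *Prdx5* the 1 other gene is *Trmt112*, whose exons overlap it on the opposite strand. For *Prdx2* they are 2 processed pseudogenes and both neighbours whose exons overlap it on the opposite strand. Of these neighbours the AP-1 gene *Junb* stood at 4.93 FPKM in the cKO library and 1.33 FPKM in the WT library, and *Rnaseh2a* at 5.36 and 12.4 FPKM, both far below *Prdx2*. *Prdx3*, *Prdx4*, *Txn2* and *Txnrd1* shared 0 such words with other genes.

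The genes around the system were described as 8 lists, of which 90 genes were in the table and 79 reached 1 FPKM. Of these 79, 17 were higher (21.5%, against 18.2% of all genes) and 5 lower (6.33%, against 12.2%), with a median log2 ratio of 0.15. Repair and control genes had 4 of 9 higher and 1 lower, with a median of 0.57. *Sesn2*, a sestrin induced by stress, stood at 3.01 FPKM in the cKO library and 0.702 FPKM in the WT library. *Bach1*, a repressor at antioxidant response elements, stood at 2.62 FPKM in the cKO library and 0.744 FPKM in the WT library. *Sesn2* and *Bach1* reached 1 FPKM only in the cKO library, which favours a call of higher and raises the median of the list. *Apex1*, a base excision repair nuclease that also acts as a redox factor with thioredoxin, stood at 1.65 FPKM in the cKO library and 7.38 FPKM in the WT library, 4.48-fold lower. *Srxn1*, the sulfiredoxin that repairs overoxidised peroxiredoxins, was at 0.255 FPKM in the cKO library and listed at 0 in the WT library. *Txnip*, which binds and inhibits thioredoxin, was abundant at 213 FPKM in the cKO library and 345 FPKM in the WT library, a log2 ratio of -0.69.

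Thioredoxin-fold proteins outside the 10 genes had 6 of 18 higher and 1 lower, with a median of 0.38. Of all genes at 1 FPKM, 18.2% were higher and 12.2% lower. Where the larger value was 1 to under 10 FPKM, 23.4% of genes were higher and 12.6% lower. The largest ratios were those of *Nxnl2*, a nucleoredoxin-like gene (8.81 FPKM in the cKO library and 1.52 FPKM in the WT library), and of the endoplasmic reticulum membrane genes *Tmx1* (6.47 and 1.39 FPKM) and *Tmx3* (3.08 and 0.863 FPKM). Genes of oxidative folding in the endoplasmic reticulum had 3 of 13 higher and 0 lower, with a median of 0.17. The oxidase gene *Ero1l* stood at 3.03 FPKM in the cKO library and 0.555 FPKM in the WT library, the disulfide isomerase gene *Pdia6* at 319 and 132 FPKM, and the sulfhydryl oxidase gene *Qsox1* at 19.8 and 8.45 FPKM. Like *Tmx3*, *Ero1l* reached 1 FPKM only in the cKO library, which favours a call of higher. *Prdx4*, in the same compartment, was not among the higher genes.

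NADPH supply and the pentose phosphate pathway had 4 of 13 higher and 0 lower, with a median of 0.50. The shares over all genes at 1 FPKM were 18.2% higher and 12.2% lower. The transaldolase gene *Taldo1*, whose enzyme does not itself make NADPH, stood at 195 FPKM in the cKO library and 79.3 FPKM in the WT library. *Pgd*, whose enzyme does, stood at 21.9 FPKM in the cKO library and 10.2 FPKM in the WT library, and the mitochondrial dehydrogenase gene *Idh2* at 5.11 and 2.32 FPKM. *G6pdx*, also of this list, went the other way, at 66.5 FPKM in the cKO library and 121 FPKM in the WT library. Its log2 ratio of -0.87 did not reach the rule. In superoxide and peroxide enzymes 0 of 6 were higher and 3 lower, with a median of -0.55. The glutathione peroxidase gene *Gpx4* stood at 116 FPKM in the cKO library and 251 FPKM in the WT library, *Gpx1* at 24.1 and 69.3 FPKM, and the copper chaperone gene *Ccs* at 2.46 and 15.1 FPKM. The most abundant gene of the list, *Sod1*, went the other way, at 3425 and 2229 FPKM, a log2 ratio of 0.62 that did not reach the rule. With it the list summed to 3604 FPKM in the cKO library and 2595 FPKM in the WT library.

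In the remaining 3 lists 0 genes were higher or lower by the rule, against 18.2% and 12.2% of all genes at 1 FPKM. The 5 glutaredoxin and glutathione reductase genes had a median of -0.35. *Glrx5*, of mitochondrial iron-sulfur cluster assembly, stood at 953 FPKM in the cKO library and 637 FPKM in the WT library, *Glrx* at 333 and 487 FPKM, and *Glrx3* at 23.0 and 32.4 FPKM. The 7 genes of ribonucleotide reductase, methionine sulfoxide reductases and PAPS synthases had a median of -0.02. The ribonucleotide reductase gene *Rrm1* stood at 2.66 FPKM in the cKO library and 5.24 FPKM in the WT library, *Rrm2b* at 14.7 and 24.3 FPKM, and the selenoprotein gene *Msrb1* at 12.2 and 22.3 FPKM. The 8 genes of selenocysteine synthesis and insertion, on which the reductases depend, had a median of -0.46. *Eefsec*, the selenocysteine elongation factor, stood at 10.1 FPKM in the cKO library and 18.4 FPKM in the WT library, *Secisbp2* at 15.2 and 7.91 FPKM, and *Sephs1* at 2.30 and 1.11 FPKM.

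**Figure D4:**
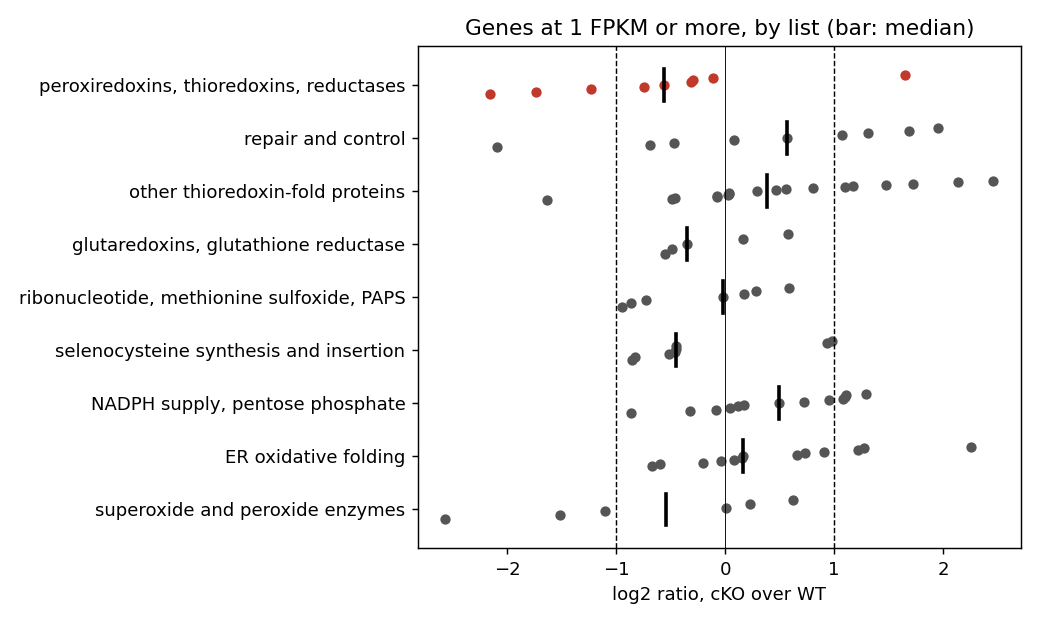
Log2 ratio of cKO over WT (horizontal) for each gene at 1 FPKM or more, by list, with the system genes in red at the top, a black bar at each list median and dashed lines at 1 and -1. The median of the system genes is -0.56, beside 0.57 for repair and control genes and -0.55 for superoxide and peroxide enzymes. Some genes, such as *Sesn2* and *Bach1* among repair and control genes, reached 1 FPKM only in the cKO library.

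The direction of *Prdx1*, *Prdx2*, *Prdx3* and *Prdx6* was the same in all 7 ways of processing that were tried. So was that of *Prdx5*, *Txn2* and *Txnrd1*, which were neither by the 2-fold rule. The log2 ratio of *Prdx3* ran from -2.22 to -1.80 and that of *Prdx6* from 1.48 to 1.90. The share of higher genes among all genes past the 2-fold rule was 59.8% as deposited. It was 74.4% as TPM and 72.7% when the 50 most abundant genes were left out of the library sizes, but 55.9% with median-of-ratios scaling and 52.0% less the trend on length and GC content.

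**Figure D5:**
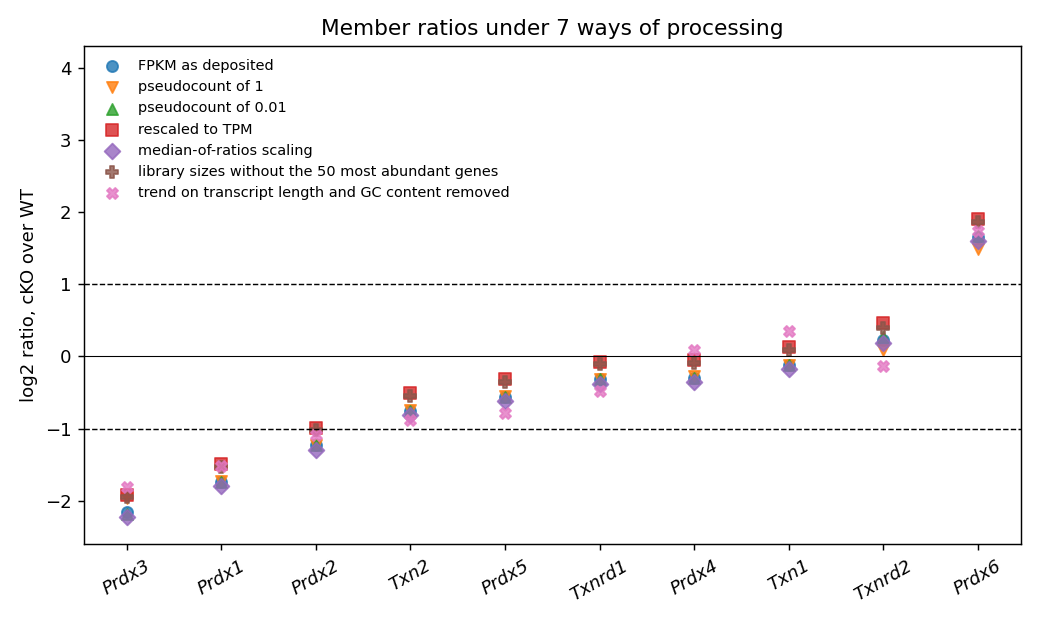
Log2 ratio of cKO over WT for each of the 10 genes under 7 ways of processing (symbols), ordered by the ratio of the deposited FPKM, with dashed lines at 1 and -1. *Prdx2* reaches -0.99 as TPM, and the symbols of *Prdx4*, *Txn1* and *Txnrd2* fall on both sides of 0.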

How the data were processed

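Total RNA of oocytes from 2-week-old mice was extracted with Trizol and made into TruSeq libraries, per the labels' protocols. The submitters' processing notes name Bowtie 0.12.2 and mm10. Gene counting, annotation, strand use and the authors' test are not given in the sources used here. The authors deposited 3 tables with 1 FPKM value per gene and library, the fold change (ratio) of knockout over control, a p-value and a false discovery rate, per the file headers. A deposited FPKM value of 1e-05 was read as 0. The KO column was read as cKO and NC, by elimination, as WT. Loci stand under the description header and descriptions under the locus header.

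Ratios were taken on the log2(FPKM + 0.1) scale and called at 2-fold and 1 FPKM in either library (Python 3.11.15, numpy 2.4.6, pandas 2.3.3). The code for the rule and the trend removal was run on simulated data. How often the rule errs on libraries like these was not tested. No test between genotypes was possible, and counting error is unknown because depth is. Transcript length, GC content and coding sequence came from GENCODE M21, by Entrez ID. Named were the 10 genes, *Kat8*, *Srxn1*, *Txnip*, *Txnrd3*, *Prdx6b*, up to 3 genes per list with the largest absolute ratios, and the 3 genes nearest to the highest and the lowest of the 10. The search for nearest genes left out the kinds of entry listed below. Overlapping neighbours, haemoglobin genes and the cell type markers printed were named as checks after their values were seen. *G6pdx* and *Sod1* were named outside these rules, as genes that went the other way in their lists. The 10 genes and the lists were chosen with earlier results of these data known. Alternatives were other pseudocounts, floors, scalings and folds, and removal of a trend on length and GC content.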

Additional observations from a re-analysis of the deposited data

How the results depend on the processing

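The count of system genes past the rule was 1 higher under every alternative. It was 3 lower except as TPM, where it was 2 because *Prdx2* was at -0.99, and at 1.5-fold, where it was 4. Their median log2 ratio of -0.56 was -0.31 as TPM, -0.35 with library sizes without the 50 most abundant genes, -0.44 with no floor, which adds *Txnrd2*, and -0.78 less the trend on length and GC content. The median over all genes, 0.06 as deposited, moved in the same direction in each of these settings. It was 0.30 as TPM, 0.27 without the 50 most abundant genes, 0.12 with no floor and -0.07 less the trend. The genes of the 8 lists past the rule, 17 higher and 5 lower, were 26 higher and 14 lower at 1.5-fold and 22 higher and 4 lower as TPM. Less that trend they were 13 higher and 8 lower, and the cause was not tested. The counts over all genes moved too. Of all 11816 genes at 1 FPKM, 2149 were higher and 1442 lower as deposited. At 1.5-fold 3443 were higher and 2737 lower, and as TPM 2857 and 983. Less the trend 1602 were higher and 1479 lower, of 11397 genes. No paired analysis was possible because each genotype has 1 library. Leaving out a library was not possible either. Depth is unknown, so low values such as those of *Txnrd2* and *Srxn1* have no interval.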

Other observations

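Predicted genes, RIKEN clones, numbered sequence entries, pseudogenes, small RNAs and names turned into dates were left out of the search for nearest genes. Distance was taken on the log2(FPKM + 0.1) scale over the 2 libraries. Among the rest, the pairs of values most like that of *Prdx3* were those of *Rttn* (distance 0.0222), *Gli3* (0.0838) and *Prl8a2* (0.109). *Rttn*, a centriole gene, stood at 4.47 FPKM in the cKO library and 20.3 FPKM in the WT library. *Gli3*, a transcription factor gene of hedgehog signalling, stood at 4.38 FPKM in the cKO library and 21.3 FPKM in the WT library, and *Prl8a2*, of the prolactin family, at 4.76 and 20.6 FPKM. Nearest to *Prdx6* were *Pigh* (distance 0.0394; 14.8 FPKM in the cKO library and 4.46 FPKM in the WT library), *Snapc2* (0.0488; 15.003 and 4.48 FPKM) and *Myo1e* (0.0493; 14.5 and 4.42 FPKM). *Pigh* acts in GPI anchor synthesis, *Snapc2* in small nuclear RNA transcription, and *Myo1e* encodes a myosin.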
